A study of Mus musculus with 12 samples.

Results

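The 9 genes described here encode the mouse Fc gamma receptors, which bind IgG, and the proteins that act next to them: the activating receptors Fcgr1, Fcgr3 and Fcgr4, the inhibitory receptor Fcgr2b, the signalling chain Fcer1g, the neonatal Fc receptor Fcgrt, the kinase Syk and the phosphatases Inpp5d and Ptpn6. They were picked by symbol, and each symbol matched 1 of the 23438 genes in the deposited expression table. The table gives transcript abundance scaled to transcript length and library total (TPM) for 12 RNA-seq libraries of bone marrow-derived macrophages (BMDMs), cells grown from bone marrow and taken here at day 7 of differentiation. Of these, 5 libraries came from Baf60a knockout (KO) BMDMs and 7 from wild-type (WT) BMDMs, and the series describes the donor animals of both genotypes as atherosclerotic C57 mice. The labels do not say how the knockout was driven, how atherosclerosis was brought about, what age or sex the mice had, or whether each library came from its own mouse. The p-values below therefore measure the spread between libraries, which may be technical.

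Macrophages take up IgG-coated particles through Fc gamma receptors. The activating receptors pair with the Fc receptor gamma chain encoded by Fcer1g, whose immunoreceptor tyrosine-based activation motif (ITAM) is phosphorylated by Src family kinases and then recruits Syk. Fcgr2b carries an inhibitory motif (ITIM) in its own tail that recruits the lipid phosphatase SHIP1, the product of Inpp5d, so that the response to an immune complex depends on the levels of the activating receptors relative to Fcgr2b. Ptpn6 encodes SHP-1, a tyrosine phosphatase recruited by many other ITIM receptors, and Fcgrt encodes the receptor that recycles IgG inside the cell.

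All 6 macrophage markers examined were present in all 12 libraries, but not at like levels. Adgre1 (F4/80), Cd68 and Mertk were at 371 to 653, 1119.6 to 1718 and 17.25 to 29.6 TPM over the 12. Csf1r and Cd14 were at 170 to 275 and 59.95 to 81.8 TPM in WT replicates 2, 3 and 4, against 541 to 910.05 and 315 to 525.96 TPM in the other 9. Lyz2 was at 4932 to 5853 TPM in KO libraries, against 14635 to 16912 TPM in WT replicates 1, 5, 6 and 7, and WT replicates 2, 3 and 4 spanned 5232 to 21547 TPM. The sum of the 6 was 8078 to 9182 TPM in KO libraries, against 17523 to 19837 TPM in WT replicates 1, 5, 6 and 7. It was 6969.7 to 24232 TPM in WT replicates 2, 3 and 4. Lyz2 was the largest part of that sum in every library. For Adgre1, Csf1r, Cd68 and Mertk, the KO libraries overlapped WT replicates 1, 5, 6 and 7. For Cd14, every KO library was higher, at 506.61 to 525.96 TPM, against 314.75 to 482.49 TPM in WT replicates 1, 5, 6 and 7. Smarcd1, the gene that encodes BAF60A, averaged 6.90 ± 0.579 TPM in KO libraries and 13.6 ± 1.40 TPM in WT libraries (SD, n = 5 and 7; log2 fold change -0.88, adjusted p = 0.000744, limma), and the groups did not overlap. WT replicates 2, 3 and 4 stood apart from the other 9 libraries: 49.1% of the 11152 genes tested lay outside the range of those 9 libraries in all 3. The summed level of 7 fibroblast and smooth muscle markers ran between 3902.5 and 9784 TPM there. It ran between 190.1 and 605 TPM in KO libraries and between 112 and 425 TPM in WT replicates 1, 5, 6 and 7. Acta2 and Tagln were the 2 highest of these markers. They, Col1a1, Col1a2, Col3a1 and Pdgfrb were above the other 9 libraries in all of WT replicates 2, 3 and 4. Dcn was not, at 11.05, 3.22 and 4.38 TPM there against 2.06 to 8.84 TPM in the other 9. The sum of 8 neutrophil markers was 78.9 to 108 TPM in those 3 libraries, against 992 to 6156 TPM in KO libraries and 1176 to 1521 TPM in the other 4 WT libraries. Each KO and WT comparison is therefore given with all 12 libraries and again with 9, without those 3. The 3 were set apart by their expression values, not by a label, and all are WT. Leaving them out narrows the WT spread (for Syk, an SD of 11.8 TPM with them and 2.79 TPM without). The 9-library p-values can therefore be too small, and a gene that passes only there is a description of those libraries. Why the 3 libraries stand apart is not stated in the labels, and the part of these markers in the results below was not tested. In bulk RNA, fewer cells of a type and less RNA per cell cannot be told apart.

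Fcgr2b, Fcgr3, Fcgr4 and Fcer1g lie near each other on mouse chromosome 1 (mm10, GENCODE M21). Fcgr2b (ENSMUSG00000026656) spans chr1:170958617-170976547 on the minus strand, Fcgr4 (ENSMUSG00000059089) spans chr1:171018920-171029761 on the plus strand, Fcgr3 (ENSMUSG00000059498) spans chr1:171051174-171064935 on the minus strand and Fcer1g (ENSMUSG00000058715) spans chr1:171229572-171234365 on the minus strand. Fcgr1 (ENSMUSG00000015947) is apart from them at chr3:96282909-96293969 on the minus strand. The promoter windows of the 4 receptor genes are shown because the balance between these genes is the main measurement below. Each runs from 250 bases before to 50 bases after the transcription start (RefSeq, GRCm38.p6, the assembly also called mm10), 5′ to 3′ on the gene's own strand, at chr3:96293920-96294219 for Fcgr1, chr1:171059354-171059653 for Fcgr3, chr1:171018676-171018975 for Fcgr4 and chr1:170976022-170976321 for Fcgr2b.
Fcgr1: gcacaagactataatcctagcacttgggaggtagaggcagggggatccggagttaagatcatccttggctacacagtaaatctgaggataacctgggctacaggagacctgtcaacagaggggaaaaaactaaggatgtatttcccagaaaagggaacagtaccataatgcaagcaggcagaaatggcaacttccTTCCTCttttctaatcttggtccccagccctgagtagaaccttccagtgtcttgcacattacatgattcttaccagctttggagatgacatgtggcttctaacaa
Fcgr3: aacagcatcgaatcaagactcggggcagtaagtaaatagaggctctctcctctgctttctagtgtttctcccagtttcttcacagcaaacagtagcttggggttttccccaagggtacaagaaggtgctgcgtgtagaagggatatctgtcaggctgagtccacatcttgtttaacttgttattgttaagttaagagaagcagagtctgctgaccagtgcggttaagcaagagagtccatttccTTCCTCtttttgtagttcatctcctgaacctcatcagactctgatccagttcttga
Fcgr4: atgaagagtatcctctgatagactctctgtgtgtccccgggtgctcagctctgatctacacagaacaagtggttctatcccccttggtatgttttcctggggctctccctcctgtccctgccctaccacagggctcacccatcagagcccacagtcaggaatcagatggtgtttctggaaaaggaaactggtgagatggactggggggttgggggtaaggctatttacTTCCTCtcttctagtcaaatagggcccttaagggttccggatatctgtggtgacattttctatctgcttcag
Fcgr2b: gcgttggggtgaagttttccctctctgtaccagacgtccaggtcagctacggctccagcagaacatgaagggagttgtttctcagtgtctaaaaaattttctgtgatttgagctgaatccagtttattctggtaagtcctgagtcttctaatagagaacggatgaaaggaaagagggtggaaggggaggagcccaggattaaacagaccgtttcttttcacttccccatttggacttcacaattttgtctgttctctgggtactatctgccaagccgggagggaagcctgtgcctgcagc
The capitals mark GAGGAA read on either strand (TTCCTC on the strand shown). It is 1 form of the sequence that the macrophage transcription factor PU.1 binds. The shorter GGAA, which the Fcgr2b window also holds, was not marked. The motif was chosen after the sequences had been read. Fcgr1, Fcgr3 and Fcgr4 each hold 1 copy, 55, 6 and 22 bases before the start in that order, and the Fcgr2b window holds none. Over the 9 genes, 6 of 11 windows (54.5%) held the motif: Fcgr1, both Fcgr3 windows, Fcgr4, 1 of 2 Syk windows and Inpp5d. The Fcgr3 windows overlap and hold the same copy. Over all genes, 9289 of 32851 windows (28.3%) held it. As the motif was chosen after the sequences had been read, nothing is read from these shares. The windows of Fcgr2b, Fcer1g, Fcgrt and Ptpn6 held none, which says only that these letters are not in those windows.

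Fcgr2b and Fcgr3 also share coding sequence, which bears on how their reads are assigned. The longest shared stretch is 129 bases, at coding positions 278 to 406 of 1023 in Fcgr2b and 263 to 391 of 804 in Fcgr3, and it reads as follows.
Fcgr2b and Fcgr3: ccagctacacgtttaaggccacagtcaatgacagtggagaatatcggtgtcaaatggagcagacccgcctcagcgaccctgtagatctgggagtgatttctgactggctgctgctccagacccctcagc
Of the 1733 distinct 51-base words in Fcgr3 transcripts, the length of 1 read, 163 (9.41%) also occur in Fcgr2b. Of the 5689 such words in Fcgr2b, 393 (6.91%) occur in some other gene, 163 of them in Fcgr3. Fcgr1, Fcgr4, Fcer1g, Fcgrt and Syk shared no such word with another gene. Ptpn6 shared 151 of 3038 words with Gm20531 on the opposite strand, and the labels do not say whether strand was used in the quantification. The levels of Fcgr2b and Fcgr3 are thus estimates that rest on their unshared sequence, and a misassigned read would move both.

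With 12 libraries, none of the 9 genes passed the test between KO and WT (limma on log2(TPM + 1), Benjamini-Hochberg adjusted over 11152 genes; 3 of the 9 had an unadjusted p under 0.05). Over all genes tested, 0.126% passed (0.108% higher in KO, 0.0179% lower), and 17.5% had an unadjusted p under 0.05. Without WT replicates 2, 3 and 4, Syk was higher in KO and was the 1 member of 9 to pass, against 2.33% of all genes tested (1.61% higher in KO, 0.717% lower). At an unadjusted p under 0.05 the 9-library counts were 4 of the 9 genes (Fcgr4, Fcgr2b, Fcer1g and Syk) and 18.9% of all genes tested. The median log2 fold change over the 9 genes was 0.15 with 12 libraries and 0.09 with 9, beside 0.04 and 0.05 over all genes tested. In the comparison of KO with WT replicates 1, 5, 6 and 7, the groups did not overlap for 2 of the 9 genes (Syk, all KO higher, and Fcer1g, all KO lower), and 9.17% of all genes tested did not overlap (7.09% with KO higher, 2.08% with KO lower). With all 7 WT libraries, the groups overlapped for all 9 genes, while 3.56% of all genes tested did not (2.92% with KO higher, 0.637% with KO lower). With 2 of 9 members against 9.17%, and 1 of 9 against 2.33%, nothing is read from these counts about the 9 genes as a set.

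**Figure D1:**
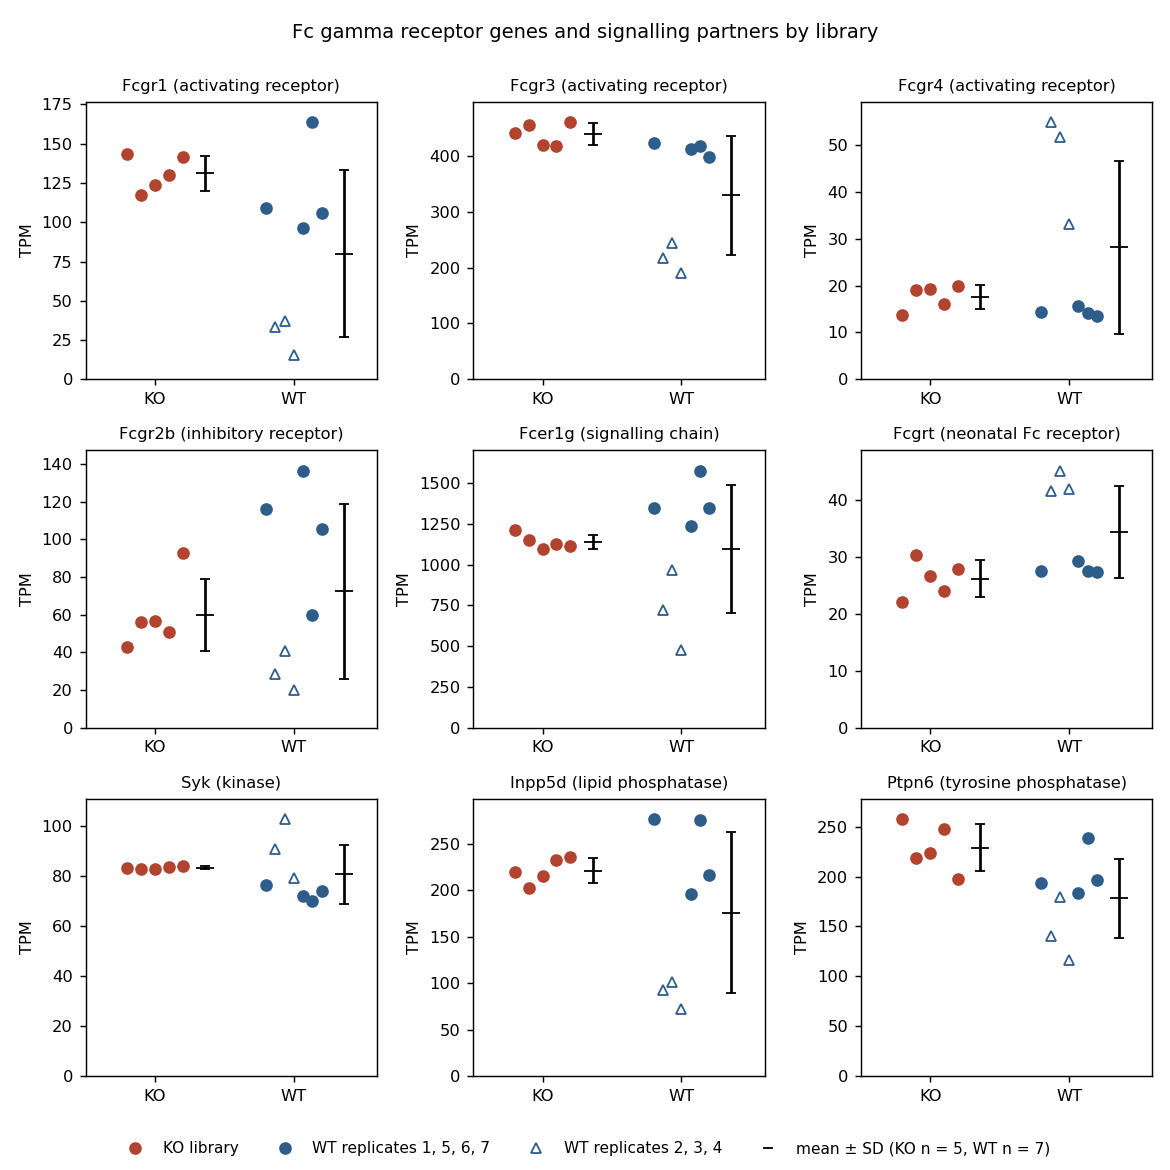
Level of each of the 9 genes (y axis, TPM, from 0) in every library, KO left of WT, with the mean ± SD beside each group (n = 5 and 7). Open triangles are WT replicates 2, 3 and 4, which sit below the other 9 libraries for 6 genes and above them for Fcgr4 and Fcgrt.

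Fcgr3, a low-affinity activating receptor, was the most abundant of the 4 receptors. It was at 440.5, 456, 419, 418 and 459.8 TPM in KO replicates 1 to 5, against 424, 413, 418 and 397 TPM in WT replicates 1, 5, 6 and 7 and 218, 244 and 191 TPM in WT replicates 2, 3 and 4. The KO libraries and the first 4 WT libraries overlapped within a narrow band, and the other 3 WT libraries lay well below it. The log2 fold change of KO over WT was 0.48 ± 0.21 (SE, adjusted p = 0.277, limma) with 12 libraries and 0.09 ± 0.04 (adjusted p = 0.275) with 9.

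Fcgr1, the high-affinity receptor for IgG, was at 143, 118, 124, 130.1 and 141 TPM in KO libraries. It was at 109, 96.1, 164 and 106 TPM in WT replicates 1, 5, 6 and 7 and WT replicates 2, 3 and 4 had 33.0, 37.1 and 15.4 TPM. All 5 KO libraries were above WT replicates 1, 5 and 7 and below WT replicate 6. The log2 fold change was 1.06 ± 0.50 with 12 libraries (adjusted p = 0.291, limma) and 0.17 ± 0.14 with 9 (adjusted p = 0.556). Without WT replicate 6 as well, it was 0.33 with an adjusted p of 0.0428. It passed in 1 of 16 alternative 9-library fits, and without WT replicate 5 it was 0.08 (adjusted p = 0.818, limma).

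Fcgr4, the mouse receptor for IgG2a and IgG2b complexes, was the least abundant of the 9 genes in KO libraries. It was at 13.7, 19.15, 19.2, 16.1 and 19.8 TPM in KO libraries, against 14.4, 15.5, 14.2 and 13.4 TPM in WT replicates 1, 5, 6 and 7 and 54.8, 51.7 and 33.2 TPM in WT replicates 2, 3 and 4. KO replicates 2 to 5 lay above the first 4 WT libraries and KO replicate 1 among them, and the other 3 WT libraries were the highest of all. The sign of the difference therefore turned with the choice of libraries: the log2 fold change was -0.42 ± 0.38 with 12 libraries (adjusted p = 0.475, limma) and 0.26 ± 0.10 with 9 (adjusted p = 0.213). The 2 KO libraries with the lowest Fcgr4, replicates 1 and 4, had the highest neutrophil marker sums, 6156 and 4291 TPM, against 992 to 2070.4 TPM in the other 3 KO libraries. They also had the lowest fibroblast and smooth muscle marker sums, 190.1 and 273 TPM, against 423 to 605 TPM in the other 3. The 2 marker sets cannot be told apart in these libraries, and the part of either in the Fcgr4 values was not tested. Without KO replicate 1, the 9-library difference passed, at 0.34 (adjusted p = 0.0465). It passed in 1 of 16 alternative fits, and without WT replicate 7 it was 0.23 (adjusted p = 0.420, limma).

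Fcgr2b, the only inhibitory Fc gamma receptor, varied most, relative to its mean, among the KO libraries and among WT replicates 1, 5, 6 and 7. It was at 42.9, 55.9, 56.9, 50.8 and 92.9 TPM in KO replicates 1 to 5, against 116, 136, 59.85 and 105 TPM in WT replicates 1, 5, 6 and 7 and 28.6, 40.75 and 20.1 TPM in WT replicates 2, 3 and 4. KO replicates 1 to 4 were below all 4 of the first WT libraries, KO replicate 5 was between WT replicates 6 and 7, and WT replicates 2, 3 and 4 were below every other library. The log2 fold change was -0.02 ± 0.46 with 12 libraries (adjusted p = 0.977, limma). With 9 libraries it was -0.78 ± 0.26, or 0.582-fold, and did not pass (adjusted p = 0.146; unadjusted p = 0.0144). Without WT replicate 6 it was -1.02 (adjusted p = 0.0359), and with limma's library weights in the 9-library fit it was -0.92 (adjusted p = 0.0278). These were the 2 of 16 alternative fits in which it passed, and without WT replicate 1 the adjusted p was 0.302 (limma). The library that stood out in each group also stood out in the fibroblast and smooth muscle marker sum: KO replicate 5 had the highest of the KO sums (605 TPM, against 190.1 to 437 TPM in the other 4), and WT replicate 6 had the lowest of all (112 TPM, against 392 to 425 TPM in WT replicates 1, 5 and 7). Across groups the order was the other way: WT replicates 2, 3 and 4, with the lowest Fcgr2b, had the highest sums of these markers (3902.5 to 9784 TPM). KO replicate 5 also had the lowest neutrophil marker sum of the KO libraries (992 TPM). The part of either marker set in the Fcgr2b values was not tested. Fcgr2b is also the Fc gamma receptor of B cells, and 4 of 5 B cell markers were under 1 TPM in every library (Cd79b was the exception).

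Fcer1g, the shared ITAM chain, was the most abundant of the 9 genes. It was at 1209, 1149, 1095, 1125 and 1115 TPM in KO libraries, against 1346, 1235, 1574.5 and 1345 TPM in WT replicates 1, 5, 6 and 7 and 722, 966 and 478 TPM in WT replicates 2, 3 and 4. Every KO library was below the first 4 WT libraries and above the other 3. The log2 fold change was 0.15 ± 0.26 with 12 libraries (adjusted p = 0.703, limma) and -0.27 ± 0.06 with 9, or 0.831-fold (adjusted p = 0.0618). The 9-library difference was past the threshold in 3 of 16 alternative fits. These were median-ratio scaling (-0.32, adjusted p = 0.0496, limma), library weights (-0.24, adjusted p = 0.0225) and leaving out WT replicate 6 (-0.20, adjusted p = 0.0450). It did not pass with any other library left out, with an adjusted p of 0.149 without WT replicate 7 (limma).

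Syk, the kinase that docks on the phosphorylated chain, was the steadiest gene in KO libraries. It was at 83.1, 82.7, 82.5, 83.6 and 83.9 TPM in KO libraries, against 76.5, 71.75, 70.0 and 73.8 TPM in WT replicates 1, 5, 6 and 7 and 90.6, 103 and 79.1 TPM in WT replicates 2, 3 and 4. The KO libraries lay above all 4 of the first WT libraries, and WT replicates 2, 3 and 4 lay on both sides of them. The log2 fold change was 0.06 ± 0.09 with 12 libraries (adjusted p = 0.678, limma) and 0.19 ± 0.03 with 9, or 1.14-fold (adjusted p = 0.0228). The 9-library call was lost with median-ratio scaling (adjusted p = 0.0559) and without KO replicate 2, 3 or 4 or WT replicate 5 or 7 (adjusted p = 0.0536 to 0.0675), with the log2 fold change between 0.14 and 0.19 in those fits. Without WT replicate 6, 4 of the 9 genes passed (Fcgr1, Fcgr2b, Fcer1g and Syk), and without KO replicate 1, 2 passed (Fcgr4 and Syk). Over all 11152 genes tested, 462 and 316 passed in these 2 fits, against 260 in the 9-library fit.

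The phosphatases were measured at similar levels. Inpp5d (SHIP1) was at 220.4, 203, 216, 232 and 236 TPM in KO libraries, against 277, 196, 275 and 216 TPM in WT replicates 1, 5, 6 and 7 and 92.9, 102 and 72.2 TPM in WT replicates 2, 3 and 4. The KO values fell inside the range of the first 4 WT libraries, and the log2 fold change was 0.50 ± 0.33 with 12 libraries (adjusted p = 0.368, limma) and -0.11 ± 0.10 with 9 (adjusted p = 0.624). Ptpn6 (SHP-1) was at 257, 219, 224, 248 and 198 TPM in KO libraries, against 193, 184, 238 and 197 TPM in WT replicates 1, 5, 6 and 7 and 140.2, 179 and 117 TPM in WT replicates 2, 3 and 4. All 5 KO libraries were above WT replicates 1, 5 and 7 and 2 of them were above WT replicate 6. Its log2 fold change was 0.39 ± 0.15 with 12 libraries (adjusted p = 0.255, limma) and 0.17 ± 0.09 with 9 (adjusted p = 0.344).

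Fcgrt, whose product also recycles albumin, was at 22.0, 30.3, 26.65, 24.0 and 27.85 TPM in KO libraries. It was at 27.5, 29.3, 27.6 and 27.5 TPM in WT replicates 1, 5, 6 and 7 and WT replicates 2, 3 and 4 had 41.6, 45.2 and 42.0 TPM. KO and the first 4 WT libraries overlapped, and the other 3 WT libraries were the highest. The log2 fold change was -0.36 ± 0.15 with 12 libraries (adjusted p = 0.268, limma) and -0.10 ± 0.08 with 9 (adjusted p = 0.566).

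**Figure D2:**
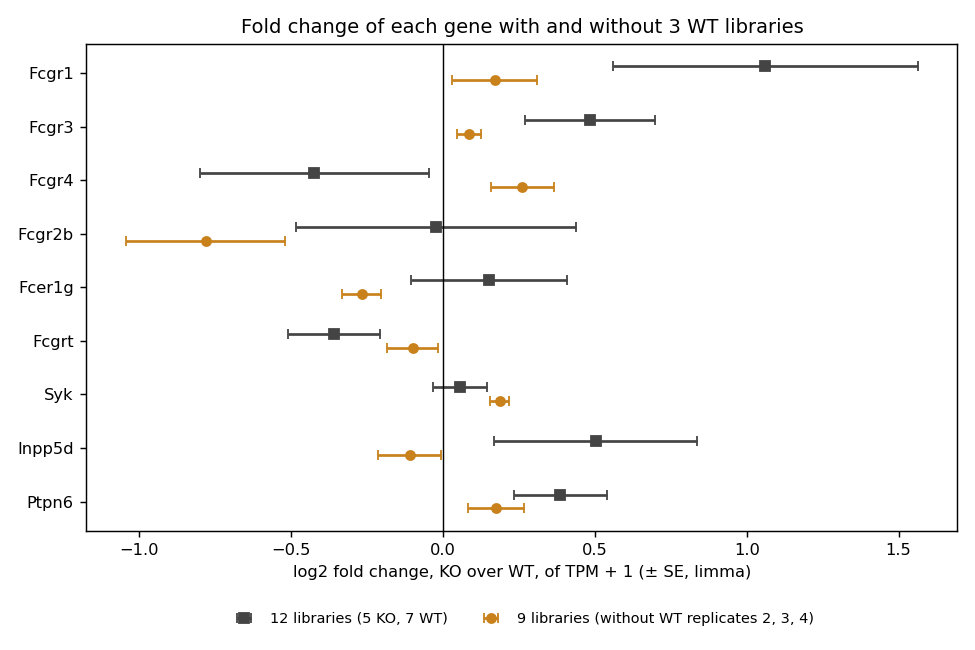
Log2 fold change of KO over WT for each gene on the log2(TPM + 1) scale, with its standard error, from 12 libraries (squares) and from 9 libraries without WT replicates 2, 3 and 4 (circles). The sign differs between the fits for Fcgr4, Fcer1g and Inpp5d, and Fcgr2b was at -0.02 with 12 libraries and -0.78 with 9.

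In TPM, which is scaled by transcript length, the order of the levels in KO libraries was Fcer1g, Fcgr3, Ptpn6, Inpp5d, Fcgr1, Syk, Fcgr2b, Fcgrt and Fcgr4. The ranges overlapped for Ptpn6 and Inpp5d and for Syk and Fcgr2b, and every other pair of neighbours was apart. In WT replicates 1, 5, 6 and 7, Fcgr2b came before Syk, and Fcgr1, Fcgr2b and Syk overlapped from 1 to the next, as did Inpp5d and Ptpn6. Over all 7 WT libraries, Fcer1g and Fcgr3 were the 1 pair of neighbours whose ranges were apart.

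The balance of activating to inhibitory receptor was taken as the summed TPM of Fcgr1, Fcgr3 and Fcgr4 over that of Fcgr2b. It was 13.9, 10.6, 9.89, 11.1 and 6.69 in KO replicates 1 to 5, against 4.72, 3.85, 9.96 and 4.90 in WT replicates 1, 5, 6 and 7 and 10.7, 8.17 and 11.9 in WT replicates 2, 3 and 4. Of the KO libraries, 3 were above all 4 of the first WT libraries, and all 5 were above WT replicates 1, 5 and 7. On the log2 scale the ratio averaged 3.35 ± 0.39 in KO libraries, 2.45 ± 0.60 in WT replicates 1, 5, 6 and 7 and 2.83 ± 0.66 in all 7 WT libraries (SD, n = 5, 4 and 7). KO exceeded WT by 0.90 with 9 libraries and by 0.51 with 12, and the groups overlapped in both. A sum over chosen genes was given no test.

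The activating sum itself differed little between KO and the first 4 WT libraries. It was 598, 592, 562, 564 and 621 TPM in KO libraries, against 547, 525, 596 and 516 TPM in WT replicates 1, 5, 6 and 7 and 306, 333 and 239 TPM in WT replicates 2, 3 and 4. Fcgr2b made up 6.69% to 13.01% of the 4-receptor sum in KO libraries, against 17.5%, 20.6%, 9.13% and 16.9% in WT replicates 1, 5, 6 and 7. Set against Fcgr2b alone, Fcgr3 was 10.3, 8.15, 7.38, 8.22 and 4.95 times as high in KO libraries, against 3.65, 3.03, 6.99 and 3.77 times in those 4 WT libraries. On the log2 scale, the ratio of Fcgr1 to Fcgr2b was 1.74, 1.07, 1.12, 1.36 and 0.61 in KO libraries, against -0.09, -0.51, 1.45 and 0.01 in WT replicates 1, 5, 6 and 7. In each of these ratios the KO libraries were above WT replicates 1, 5 and 7 and overlapped WT replicate 6.

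Relative to RNA of the activating receptors, Fcer1g RNA went the other way. The ratio of Fcer1g to the activating sum was 2.02, 1.94, 1.95, 1.996 and 1.80 in KO libraries, against 2.46, 2.35, 2.64 and 2.60 in WT replicates 1, 5, 6 and 7 and 2.36, 2.90 and 1.997 in WT replicates 2, 3 and 4. Every KO library was below the first 4 WT libraries, and WT replicate 4 lay among the KO values. The ratio of Syk to Inpp5d, kinase to lipid phosphatase, was 0.377, 0.408, 0.382, 0.360 and 0.356 in KO libraries, against 0.276, 0.365, 0.254 and 0.341 in WT replicates 1, 5, 6 and 7. These overlapped, while WT replicates 2, 3 and 4 were at 0.974, 1.01 and 1.09.

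**Figure D3:**
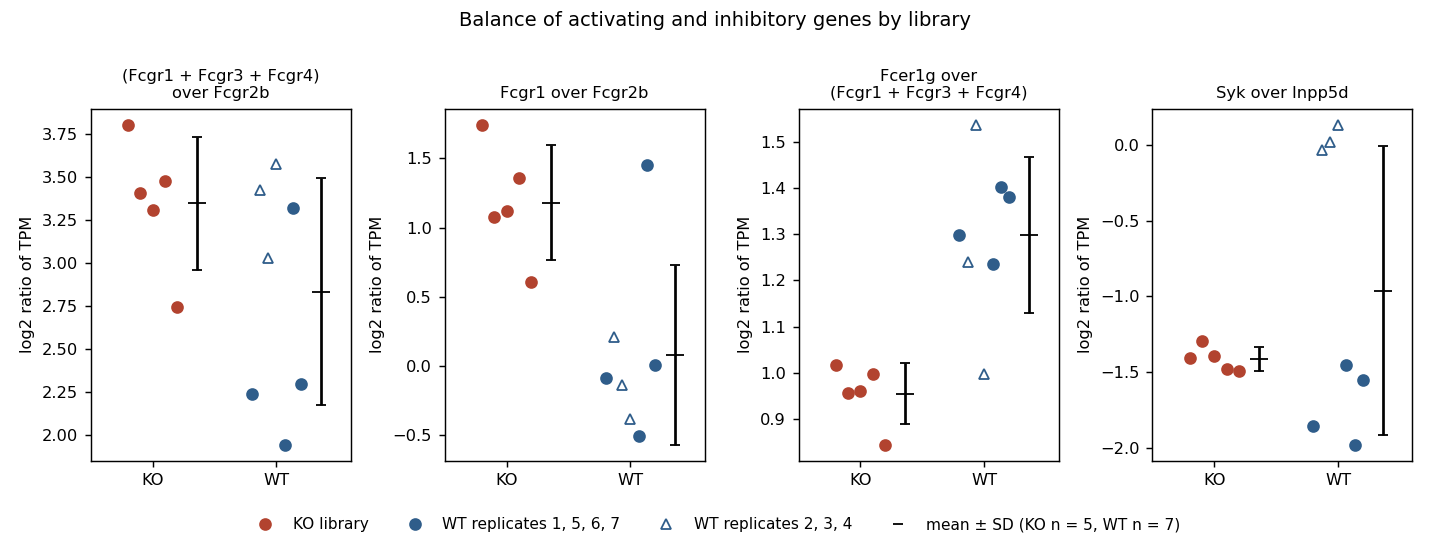
Log2 ratios of TPM in every library, KO left of WT, with the mean ± SD of each group (n = 5 and 7): activating sum over Fcgr2b, Fcgr1 over Fcgr2b, Fcer1g over the activating sum, and Syk over Inpp5d. WT replicate 6 lies among the KO libraries in the first 2 panels, and in the third the KO libraries lie below WT replicates 1, 5, 6 and 7.

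WT replicates 2, 3 and 4 had another receptor makeup than the other WT libraries. Compared with the 9 other libraries, all 3 were below the lowest for 6 of the 9 genes (Fcgr1, Fcgr3, Fcgr2b, Fcer1g, Inpp5d and Ptpn6), above the highest for Fcgr4 and Fcgrt, and overlapped for Syk. Over all genes tested, 25.5% were below and 23.6% above. Compared with the 4 other WT libraries alone, Syk joined the genes above, and 58.2% of all genes tested did not overlap (29.9% above, 28.3% below). Fcgr4 made up 17.9%, 15.5% and 13.9% of the activating sum in WT replicates 2, 3 and 4, against 2.39% to 2.96% in WT replicates 1, 5, 6 and 7 and 2.29% to 3.41% in KO libraries. Fcgr1 made up 10.8%, 11.2% and 6.44% in WT replicates 2, 3 and 4, and 19.9% to 24.0% in KO libraries. The activating to inhibitory ratio of these 3 libraries (8.17 to 11.9) was above WT replicates 1, 5 and 7, as was that of KO, but with both parts of the ratio low. The labels give WT replicates 2, 3 and 4 no group of their own, so these differences were not tested. Their fibroblast and smooth muscle marker sums, given above, move with them, and the part of those in the receptor values was not tested.

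A wider set of 139 genes in 8 lists around the pathway held 135 genes of the table and 121 that were tested. With 12 libraries none passed between KO and WT (34 of 121 had an unadjusted p under 0.05, limma), beside 0.126% of all genes tested that passed and 17.5% with an unadjusted p under 0.05. With 9 libraries 5 passed, all higher in KO, against 1.61% of all genes tested in that direction. That direction depended on the scaling. With median-ratio scaling 2 of the list genes passed, 1 higher and 1 lower, beside 83 higher and 138 lower over all genes tested. Rac2, a small GTPase of the phagocyte oxidase, averaged 134 ± 28.0 TPM in KO libraries and 70.9 ± 9.72 TPM in WT replicates 1, 5, 6 and 7 (SD, n = 5 and 4; log2 fold change 0.90, adjusted p = 0.0197), while WT replicates 2, 3 and 4 spanned 91.4 to 187 TPM. Vav3, a guanine exchange factor for Rac, averaged 19.98 ± 0.680 TPM in KO libraries and 16.6 ± 0.774 TPM in those 4 WT libraries (log2 fold change 0.25, adjusted p = 0.0247, limma). Dusp1, a MAP kinase phosphatase, averaged 127 ± 17.0 and 91.4 ± 6.28 TPM in the same groups (0.46, adjusted p = 0.0409, limma). Arpc5, an Arp2/3 subunit, and C3ar1, the C3a receptor, had log2 fold changes of 0.17 (adjusted p = 0.0325, limma) and 0.30 (adjusted p = 0.0451, limma). With 12 libraries the log2 fold changes of Rac2, Vav3 and Dusp1 were 0.49, 0.54 and 0.03. The count of 5 was 20 without WT replicate 6, 8 without KO replicate 1 and 3 without WT replicate 5. It was 1 without KO replicate 2 or WT replicate 7, and 0 without KO replicate 3, KO replicate 4 or WT replicate 1. Over all genes tested, the count of 260 was 462, 316, 125, 108, 72, 102, 82 and 51 in these fits, in that order.

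By list, the 9-library calls were 1 of 28 adaptors and lipid enzymes (Vav3), 2 of 26 actin and phagosome genes (Rac2 and Arpc5), 1 of 13 phosphatase and Dok genes (Dusp1) and 1 of 7 genes around FcRn and complement uptake (C3ar1). None passed among 11 Src family and regulator genes, 5 other Fc receptors, 13 genes of the ITAM chain list and 18 genes of the ITIM receptor list. The list names are broad, and whether each gene carries or uses its motif was not checked. The median log2 fold change of each list was between 0.01 and 0.10 with 9 libraries, except 0.24 for the 5 other Fc receptors. With 12 libraries the medians were -0.05 for the ITIM receptor list and 0.24 to 0.39 for the other 7 lists. Of the 121 genes, 71 were below the 9 other libraries in all of WT replicates 2, 3 and 4 and 11 were above, beside 25.5% and 23.6% of all genes tested.

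Among genes near the receptors that did not pass, Fcrls, an Fc receptor-like gene known from mouse microglia, averaged 148 ± 16.3 TPM in KO libraries and 254 ± 83.9 TPM in WT replicates 1, 5, 6 and 7 (log2 fold change -0.73, adjusted p = 0.0590, limma), while WT replicates 2, 3 and 4 spanned 7.32 to 23.1 TPM. Tyrobp, which encodes DAP12, the other ITAM chain of macrophages, averaged 2144 ± 23.4 TPM in KO libraries and 2326 ± 146 TPM in those 4 WT libraries (-0.12, adjusted p = 0.188, limma). All KO libraries were below those 4 WT libraries for both genes, as were 2.08% of all genes tested, and with 12 libraries their log2 fold changes were 1.13 and 0.14. The other 2 genes named from the same lists overlapped: Lgals3 (galectin-3) had a 9-library log2 fold change of 0.26 (adjusted p = 0.481, limma), and Trem2, a lipid-binding receptor that signals through DAP12, had 0.01 (adjusted p = 0.942, limma).

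**Figure D4:**
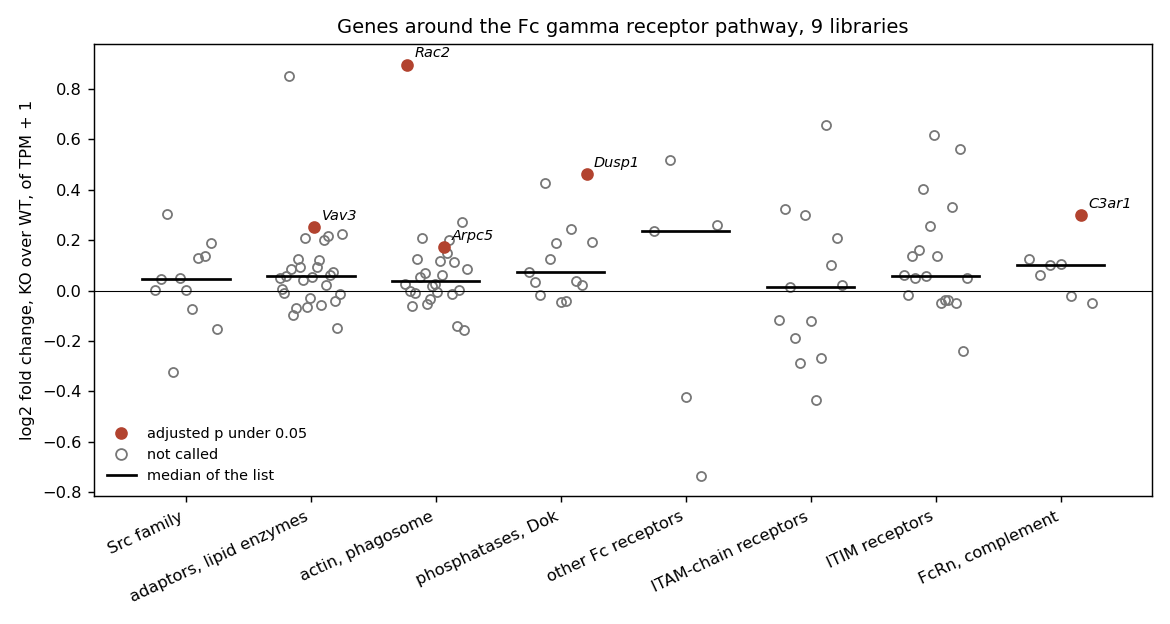
Log2 fold change of KO over WT on the log2(TPM + 1) scale for 121 genes in 8 lists around the pathway, from the 9 libraries without WT replicates 2, 3 and 4. Filled points are the 5 genes that passed (Vav3, Rac2, Arpc5, Dusp1 and C3ar1), and the bars are the list medians, 0.01 to 0.24.

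The genes whose levels tracked the receptors most closely were found by the root mean square difference between log2 levels centred on each gene's mean, over 9350 genes of 5 TPM or more on average; this describes a pattern over 12 libraries and no more. For Fcer1g the closest were Spi1 (0.11), which encodes PU.1, Gna15 (0.11) and Slc9a9 (0.12). Spi1 was at 308 to 346 TPM in KO libraries, against 327 to 396 TPM in WT replicates 1, 5, 6 and 7 and 196, 239 and 135 TPM in WT replicates 2, 3 and 4, so KO overlapped the first 4 WT libraries and the other 3 were below both. Over the 9 libraries without WT replicates 2, 3 and 4, Spi1 was not among the 3 closest to Fcer1g, which were P2ry6 (0.04), C1qc and Bcl6 (0.06). For Fcgr1 the closest were Oas1g (0.15), an interferon-induced gene, Tnfrsf11a (0.19) and Gpr65 (0.20). Over those 9 libraries, the closest to Fcgr1 were Irf9 (0.06), a subunit of the interferon-activated factor ISGF3, Nol4l and Eif2ak2 (0.07). Over all 12 libraries, the closest to Fcgr3 were Erp29 (0.07), Cyb561d1 and mt-Nd5 (0.08), and for Fcgr4 they were Cd302, Stard5 and Ankrd24. For Fcgr2b the closest genes were farther away than for the other 4, Syngr1 at 0.32 and Zranb3 and Glul at 0.35, so no gene followed its library-to-library values as closely.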

How the data were processed

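RNA was sequenced as paired 51-base reads, with an average of 30000000 read pairs per library, per the labels' protocols. The authors deposited TPM values per gene; bcl2fastq, Salmon 1.2.0 and mm10 are named in the submitters' processing notes. TPM keeps no depth, so counting intervals could not be given. Library sums were 940127 to 947987 TPM, and 23423 of 23438 gene IDs matched a GENCODE M21 symbol.

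Genes of at least 1 TPM in at least 5 of 12 libraries (11152) were tested on log2(TPM + 1) with limma 3.58.1 (R 4.3.3, trend), KO over WT, Benjamini-Hochberg adjusted over all of them, at a threshold of 0.05; these fold changes understate changes of low genes. The 9-library fit leaves out WT replicates 2, 3 and 4. Members and lists were chosen with earlier results of these data known, including that choice of libraries. The pathway genes to be named were up to 4 of each list that passed in each direction or, where none did, the 2 of highest mean TPM, and for each receptor and Fcer1g the 3 tested genes of most similar pattern. The scripts were tested on simulated data. Alternatives were another pseudocount, filter and scaling, library weights, no trend, a replicate block and leaving out each library.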

Additional observations from a re-analysis of the deposited data

Results flagged for a closer look

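Of 34 groups of values examined, 3 held a library whose gap to its nearest neighbour, relative to the range of its group, was past Dixon's critical value; chance gives about 1 group in 20, and the 3 share Fcgr2b. Fcgr2b was at 92.9 TPM in KO replicate 5, against 42.9 to 56.9 TPM in the other 4 KO libraries. The log2 ratio of Fcgr4 to Fcgr2b was -2.23 in the same library, against -1.66 to -1.54 in the other KO libraries. The log2 ratio of Fcgr1 to Fcgr2b was 1.45 in WT replicate 6, against -0.51 to 0.21 in the other 6 WT libraries.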

How the results depend on the processing

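TPM keeps no depth, so low genes could not be given counting limits. With 12 libraries, 14 genes passed; the count was 4 with median-ratio scaling, 759 with library weights, 260 without WT replicates 2, 3 and 4, and 2 to 36 when 1 library at a time was left out. Members that passed with 12 libraries numbered 0, 0 when 1 library was left out, 2 with library weights (Syk and Fcgr2b) and 1 without WT replicates 2, 3 and 4; pathway genes numbered 0, 17 with weights and 5 without those 3 libraries. With 9 libraries, 260 genes passed (180 higher, 80 lower), 221 with median-ratio scaling (83 higher, 138 lower), 758 with weights and 51 to 462 when 1 library was left out. Members then numbered 1, 3 with weights (Syk, Fcgr2b and Fcer1g) and 0 to 4 when 1 library was left out; pathway genes numbered 5, 3 with no filter, 2 with median-ratio scaling, 2 with no trend, 25 with weights and 0 to 20 when 1 library was left out.

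The sign of the 12-library log2 fold change turned for Fcgr4 (0.22 with weights, 0.26 without the 3 WT libraries), Fcer1g (-0.21 and -0.27 in the same fits, and -0.030 to 0.26 leaving out 1 library) and Inpp5d (-0.037 and -0.11); for Fcgr2b it ran from -0.27 to 0.18 leaving out 1 library. The cause of these changes was not tested. The log2 receptor balance difference of 0.51 was 0.37 to 0.67 when 1 library was left out.

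KO and WT share replicate numbers 1 to 5. The deviations of same-numbered libraries correlated at -0.23 to 0.27, and 2 of 5 KO libraries correlated best with their own number. The WT libraries with these numbers include those that stand apart from the rest, which bears on their deviations. The check therefore cannot decide whether the numbers pair the libraries. With the replicate block (10 libraries), 0 genes passed, against 13 without it; Fcgr2b was at 0.15 and Syk at -0.0036 with and without the block. On replicates 1 and 5 alone, 0 genes, members and pathway genes passed with the block and 0 without.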

Other observations

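Of the 13 tested genes of the ITAM chain list, 7 were below the other 9 libraries in all of WT replicates 2, 3 and 4 and 1 was above. Of the 18 tested genes of the ITIM receptor list, 6 were below and 5 above. Over all genes tested, 49.1% lay outside in either direction. The genes named next were chosen after their values were seen. Clec4n (Dectin-2), a fungal receptor that signals through the Fcer1g chain, was at 316, 396 and 358 TPM in those 3 libraries, against 48.8 to 69.1 TPM in the other 9, while Fcer1g was at 722, 966 and 478 TPM against 1095 TPM or more. Clec4a1 was at 67.0, 88.3 and 52.9 TPM in the 3 libraries, against 6.04 to 12.96 TPM in the other 9. Clec4d and Clec4e, which also signal through the Fcer1g chain, overlapped: Clec4d was at 465 to 948 TPM in the 3 libraries, against 350.4 to 498 TPM in the other 9, and Clec4e at 19.2 to 25.4 TPM, against 15.3 to 44.6 TPM. Siglecg, an ITIM receptor best known from B cells, was at 18.6, 12.1 and 55.9 TPM, against 0.21 to 0.61 TPM. Clec5a, which signals through DAP12, was at 47.9, 70.6 and 33.2 TPM in the 3 libraries, against 112 to 190.3 TPM in the other 9. Cd72, another ITIM receptor, was at 338 to 512 TPM in KO libraries, against 209, 288, 503 and 217 TPM in WT replicates 1, 5, 6 and 7, so that WT replicate 6 again lay among the KO libraries.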
